A study of Mus musculus with 16 samples.

Results

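Two-hour IgE crosslinking of cultured mouse mast cells was followed on 4 microRNA arrays, set against 4 arrays of the same kind of cell without IgE or antigen, out of 16 arrays in the series. BMMC are mast cells that had been raised from Balb/c bone marrow over 4 weeks with 2 growth factors, SCF (20 ng/ml) and IL-3 (5 ng/ml). IgE_BMMC are such cells to which IgE against DNP was bound first and DNP antigen was added for 2 hours. The arrays were chosen by their titles, and all mouse miRNAs on them were read, 567 in number. The other 8 arrays are used only where stated: 4 of c-kit-positive progenitors separated magnetically on day 6 of culture in the same cytokines, and 4 of MMC, BMMC driven to a mucosal type by 5 further days with IL-9 and TGF-beta. A group with IgE and no antigen was not analysed here, so the loading and the crosslinking cannot be told apart. The series calls the arrays of a group biological replicates. No label says that they came from separate animals or cultures, and p-values therefore cover only the spread among the arrays, which may be technical.

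Mast cells carry the high-affinity IgE receptor, and an antigen that bridges bound IgE clusters it. Signalling then releases stored granules within minutes and starts transcription of immediate early genes and cytokines. A miRNA is cut from a hairpin with 2 arms. One arm usually stays bound to an Argonaute protein as the guide and the other, marked with a star in the older names used here, is mostly degraded. A guide finds its targets through its seed, bases 2 to 8, so miRNAs with the same seed share many predicted targets.

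The sequences below, from RefSeq on GRCm38.p6, are those of the miRNAs with the largest differences and of their partners, with the seed in capitals. They are listed to show which of them share a seed and which pair as arms of 1 hairpin. RefSeq held a sequence for 179 of the 206 miRNAs tested (86.9%).
miR-132: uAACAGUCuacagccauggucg
miR-212: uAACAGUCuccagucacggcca
miR-21: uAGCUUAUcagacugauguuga
miR-21*: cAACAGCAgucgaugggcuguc
miR-24: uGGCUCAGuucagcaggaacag
miR-24-1*: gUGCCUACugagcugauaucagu
miR-24-2*: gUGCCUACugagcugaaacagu
miR-27a: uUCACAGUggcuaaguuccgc
miR-27b: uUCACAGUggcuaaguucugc
miR-22: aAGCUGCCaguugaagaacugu
miR-494: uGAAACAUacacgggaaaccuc
miR-135a*: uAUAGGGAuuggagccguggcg
miR-132 and miR-212 carry 1 seed and lie on the plus strand of chromosome 11, at chr11:75173723-75173744 and chr11:75173443-75173464. miR-24 is cut from 2 hairpins, on chromosomes 8 and 13, whose star arms miR-24-2* and miR-24-1* differ from each other but also share a seed. miR-27a and miR-27b, from the same 2 clusters, share theirs as well.

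The arrays of crosslinked cells were dim. The 75th percentile of the probes detected on all 16 arrays was 385 ± 50.2 (SD, n = 4) intensity units on the IgE_BMMC arrays and 1578 ± 199 (SD, n = 4) on the BMMC arrays, 4.09 times as bright. Of the arrays' control features, 6 were dimmer as well, by 3.08 to 4.29 times. After scaling, the control feature mr_1 was 0.37 higher on the log2 scale in IgE_BMMC, without overlap. The bright corner features were 0.36 higher with overlap, and the rest differed by -0.07 to 0.14. The smallest rise called below, 0.24, is less than the shift of mr_1. So are several others, among them miR-22* (0.27), miR-27b (0.27), miR-30d (0.32) and miR-221 (0.34). Per array, 152.75 ± 4.11 mouse miRNAs were well above background after crosslinking and 210.75 ± 10.4 before (SD, n = 4 each), and the groups did not overlap. An exact two-sided permutation test over 70 arrangements gave p = 0.0286, the smallest that 4 against 4 arrays allow. After scaling, 166.75 ± 4.27 and 166.5 ± 3.70 miRNAs (SD, n = 4 each) lay above the common floor of 11.8. The part of the brightness in the results below was not tested. Per the labels 100 ng of total RNA was labelled for every array, so a level here is relative to other RNA of the sample and not per cell, and fewer cells of a type and less of a miRNA per cell cannot be told apart.

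**Figure D1:**
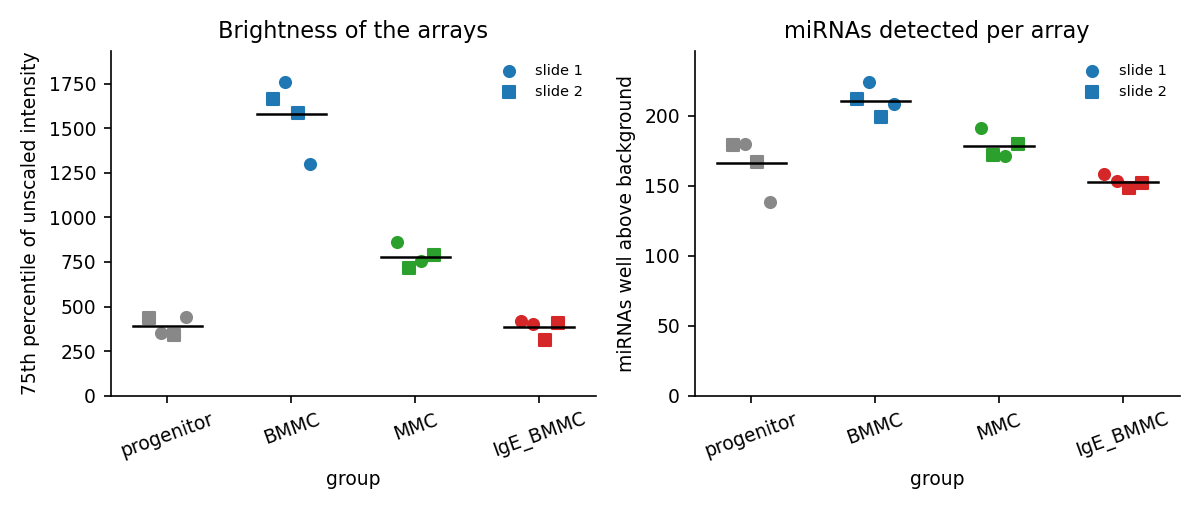
Left, the 75th percentile of unscaled intensity over the probes detected on all 16 arrays. Right, the number of mouse miRNAs well above background. Points are arrays (circles, slide 1; squares, slide 2) and bars are group means. The 4 IgE_BMMC arrays lie between 311 and 419 intensity units, below all BMMC arrays (1299 to 1759).

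Of the 206 mouse miRNAs tested, 51 differed between IgE_BMMC and BMMC (24.8%): 37 were higher (18.0%) and 14 lower (6.8%) after crosslinking. The groups did not overlap for 58 (28.2%), among them 29 of the 37 and 13 of the 14. Most shifts were small. The rises ran from 0.24 to 3.20 on the log2 scale with a median of 0.51, and 21 of them were under 1.5-fold. At least 2-fold were 5 rises (miR-132, miR-24-1*, miR-24-2*, miR-21* and miR-21) and 2 falls (miR-494 and miR-135a*). The falls ran from -0.27 to -1.21 with a median of -0.72. Over all 206 the median difference was 0.0034.

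How many were called rested on the scaling. The share of calls that were higher was 72.5% as reported and 61.0% with the median of the detected probes (25 higher, 16 lower), 51.1% with quantile normalisation (23 and 22), 44.0% with the authors' log2 table (11 and 14), 3 higher and 7 lower calls with the bright corner control features, and 24.2% with the percentile of all mouse probes (8 and 25). Normexp background correction, which moved the median of all miRNAs to 0.91, gave 163 higher and 4 lower (97.6%), and cyclic loess called 1 miRNA, miR-132, as higher (100.0%). Bright corner scaling moved the median to -0.24 and cyclic loess to -0.15. The floor was changed after values had been seen: the one first planned, 58.3 in place of 11.8, gave 24 higher and 11 lower, and 31 of the 51 calls remained. Those lost with it were dim miRNAs for the most part, among them miR-21*, miR-29a*, miR-326, miR-17*, miR-340-3p, miR-20a*, miR-28, miR-574-5p, miR-805, miR-22*, miR-452, miR-125a-3p, miR-762 and miR-152, and also miR-23a, miR-222 and miR-720. Leaving out replicate 2 of BMMC left 19 higher and 10 lower, and leaving out replicate 2 of IgE_BMMC left 22 and 11. Within slide 1 the test called 16 higher and 6 lower, and within slide 2 it called 14 and 4, from 2 arrays of each group.

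**Figure D2:**
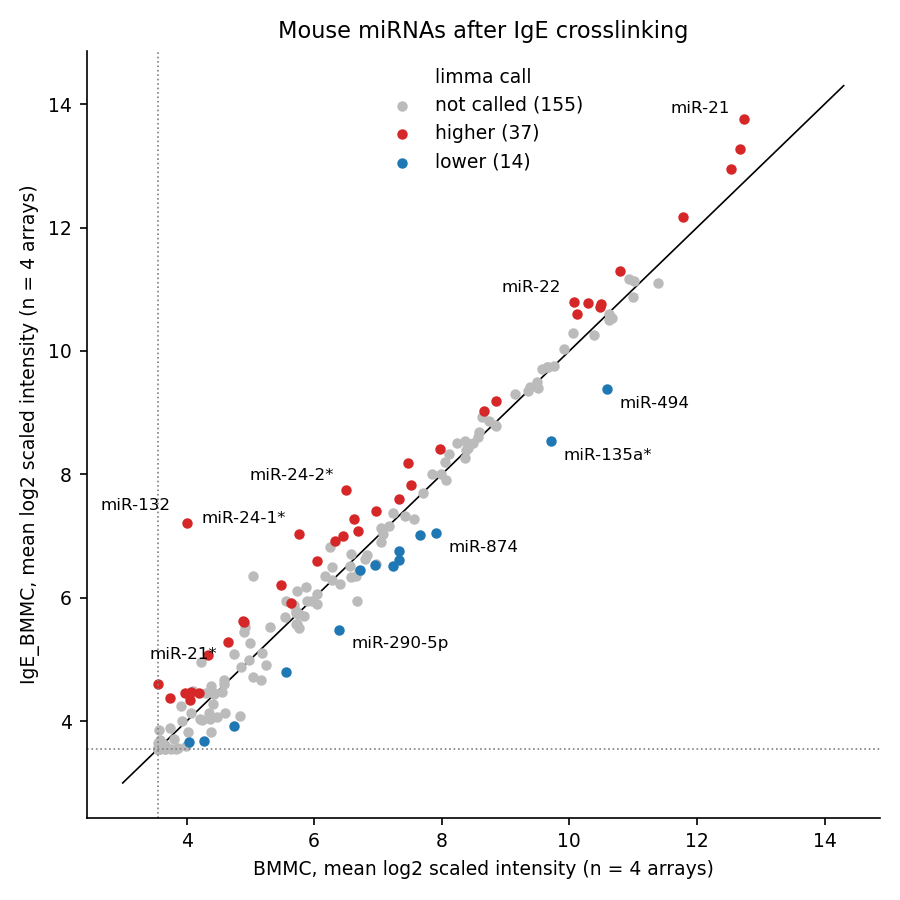
Mean log2 scaled intensity of 206 mouse miRNAs in BMMC (x axis) and IgE_BMMC (y axis), 4 arrays each, coloured by the limma call (37 higher, 14 lower). The line marks equality and the dotted lines the floor. miR-132 stands farthest from the line, at 4.01 in BMMC and 7.22 in IgE_BMMC.

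The largest difference was in miR-132, which with miR-212 forms a cluster known to be transcribed after activation of the transcription factor CREB in neurons. In BMMC its scaled log2 intensities were 4.00, 3.72, 3.87 and 4.45, close to the floor of 3.56. After crosslinking they were 7.09, 7.16, 7.25 and 7.37. Every crosslinked array lay far above every control array, and the difference of 3.20 (SE 0.13), a 9.22-fold rise, had an adjusted p of 1.03e-09. On the unscaled arrays the probe gave 40.9, 35.45, 35.6 and 43.5 intensity units in BMMC and 87.3, 88.8, 72.4 and 103 in IgE_BMMC. miR-132 was thus brighter on the dim arrays, and it was the only one of the 206 miRNAs whose unscaled intensity was higher on all 4 IgE_BMMC arrays than on any BMMC array. Its place in the order of mouse miRNAs on an array went from 138th to 163rd in BMMC to 59th to 65th in IgE_BMMC. Its probes gave differences of 3.18 and 3.20. Within slide 1 the difference was 3.04 and within slide 2 it was 3.37. It passed the test under all 27 alternatives, and its size was set partly by the floor: it was 1.35 with the floor first planned and 1.66 with a floor 4 times as high, against 2.46 to 3.37 elsewhere.

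The cluster partner miR-212 rose less. Its scaled log2 intensities were 6.25, 6.29, 6.47 and 6.78 in BMMC and 6.98, 6.92, 7.11 and 7.04 in IgE_BMMC. These groups did not overlap, and the difference was 0.56 (SE 0.15, adjusted p = 0.0148), a 1.48-fold rise. Its 2 detected probes disagreed in size, with differences of 0.56 and 1.69, and the mean of its probes gave 1.12. The unscaled intensity of miR-212 was lower on all IgE_BMMC arrays than on any BMMC array, so its rise, unlike that of miR-132, rests on the scaling.

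**Figure D3:**
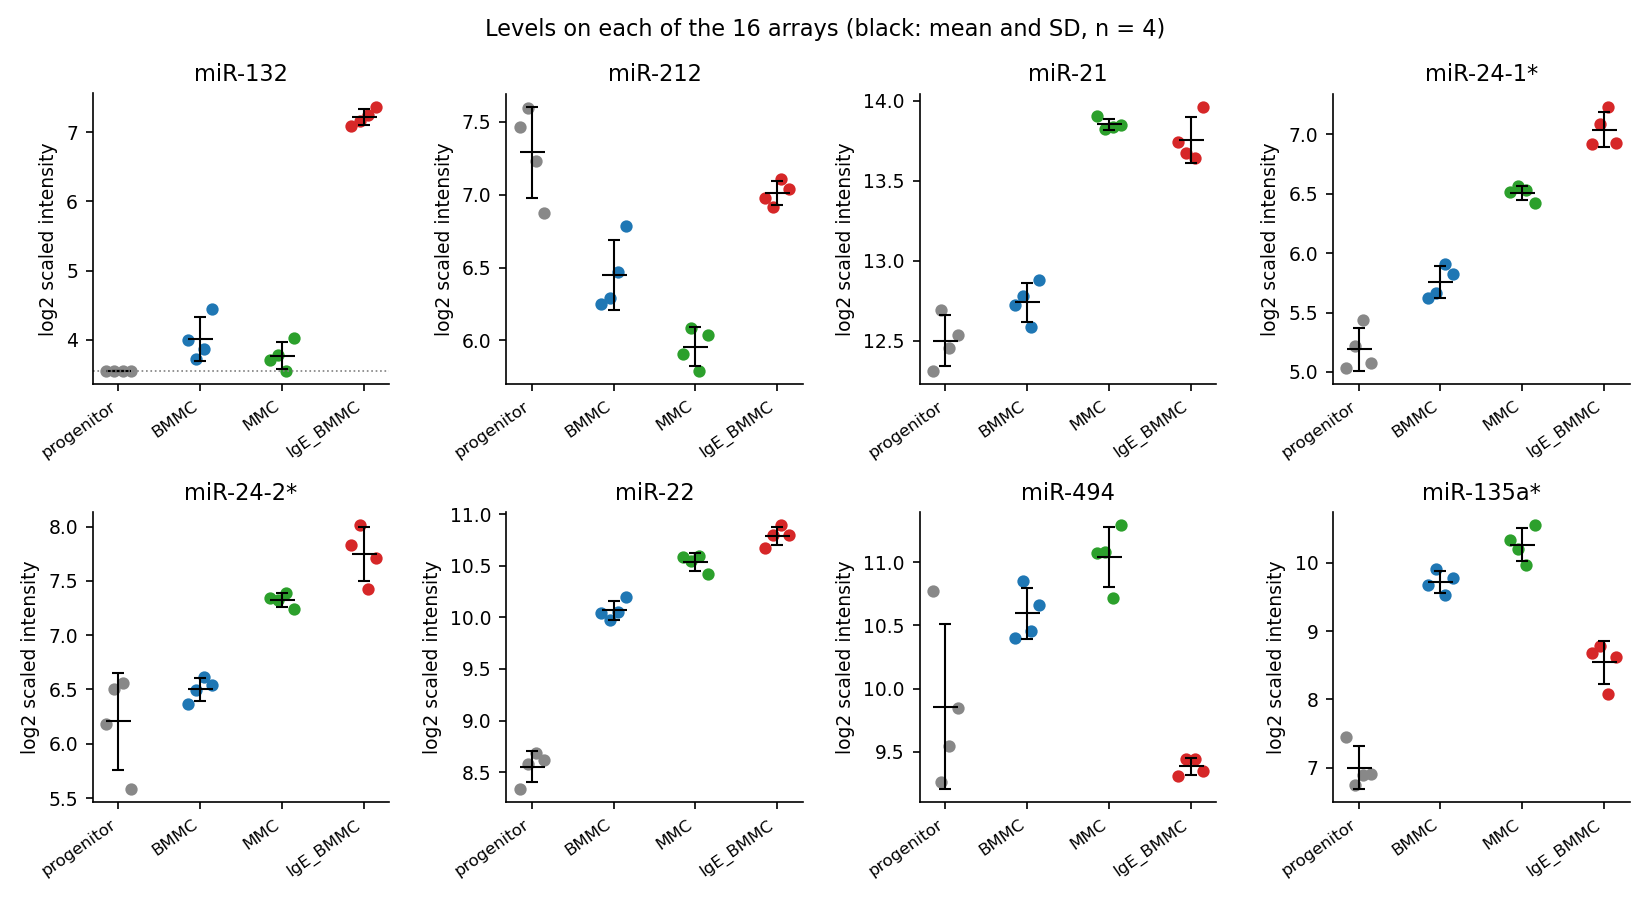
Log2 scaled intensity of 8 miRNAs on each of the 16 arrays by group, with the mean and SD (n = 4) in black and the floor as a dotted line in the panel of miR-132. The y axes differ and do not start at 0. miR-132 is at 7.09 to 7.37 on the IgE_BMMC arrays and at or below 4.45 on all others, whereas miR-212 is at 6.92 to 7.11 after crosslinking and at 6.88 to 7.59 in the progenitors.

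miR-21 is among the most abundant miRNAs of blood cells and is known to be induced by inflammatory and growth signals. In BMMC its scaled log2 intensities were 12.72, 12.78, 12.59 and 12.88, and after crosslinking they were 13.74, 13.67, 13.64 and 13.96. These groups did not overlap, with a difference of 1.01 (SE 0.09, adjusted p = 2.10e-06), a 2.02-fold rise. miR-21 was the brightest mouse miRNA on all of these arrays except replicate 3 of BMMC, where it ranked 2nd. The difference of miR-21 was not called with 3 of 6 scalings: it was 0.65 with bright corner scaling, 0.06 with quantile normalisation and -0.22 with cyclic loess. Its star arm, miR-21*, was raised to the floor on all 4 BMMC arrays and reached 4.71, 4.91, 4.20 and 4.63 after crosslinking. The difference of miR-21* was 1.06 (SE 0.22, adjusted p = 0.00293), 1.73 with a floor of 1 and 0.00 with the floor first planned.

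All 7 tested members of the miR-23/27/24 clusters rose, with a median log2 difference of 0.49. Over all tested miRNAs 18.0% rose and the median was 0.0034, but 56 of the 206 passed the filter only through the BMMC arrays. The 7 members were well above background on all 8 arrays. With the test restricted to the 143 such miRNAs, 44 were higher, all 7 members among them, and the median was 0.08. These clusters, one on chromosome 8 and one on chromosome 13, are transcribed in many blood and other cells. The star arms moved most. miR-24-1* stood at 5.62, 5.67, 5.91 and 5.83 in BMMC and at 6.92, 7.09, 7.23 and 6.92 in IgE_BMMC, a difference of 1.28 (SE 0.10, adjusted p = 6.27e-07). miR-24-2* stood at 6.36, 6.50, 6.62 and 6.54 in BMMC and at 7.83, 8.01, 7.43 and 7.71 in IgE_BMMC, a difference of 1.24 (SE 0.18, adjusted p = 0.000258). In both, all crosslinked arrays were above all control arrays. The guide miR-24 rose by 0.49 (SE 0.06), from 10.21 to 10.38 in BMMC to 10.71 to 10.89 in IgE_BMMC. miR-23b rose by 0.51 (SE 0.08), miR-27a by 0.48 (SE 0.08), miR-23a by 0.39 (SE 0.13) and miR-27b by 0.27 (SE 0.08). The groups overlapped for miR-23a and miR-27b, which passed in 6 and 11 of 27 alternatives.  Of the 7, 2 were called with the authors' log2 table, 1 with the percentile of all mouse probes, 1 with bright corner scaling and 0 with cyclic loess, where the list's median was -0.20.

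Several other abundant guides rose. miR-22 went from 10.05, 9.98, 10.05 and 10.19 in BMMC to 10.67, 10.80, 10.89 and 10.79, a difference of 0.72 (SE 0.08, adjusted p = 1.43e-05). miR-140, cut from an intron of the ubiquitin ligase gene Wwp2, went from 7.53, 7.42, 7.50 and 7.46 to 8.16, 8.32, 8.14 and 8.14, a difference of 0.71 (SE 0.08, adjusted p = 3.61e-05). Neither pair of groups overlapped. miR-142-3p, an arm of the hairpin made in nearly all blood cells, went from 12.59, 12.55, 12.74 and 12.80 to 13.28, 13.45, 13.06 and 13.30, a difference of 0.60 (SE 0.08). The direction of miR-142-3p turned with quantile normalisation (-0.26) and cyclic loess (-0.28). miR-33, which lies in the sterol regulator gene Srebf2 and represses cholesterol export, rose by 0.64 (SE 0.17), and miR-32 rose by 0.55 (SE 0.10). miR-30c and miR-30d, of a family shared by many tissues, rose by 0.43 (SE 0.09) and 0.32 (SE 0.07). The groups did not overlap for any of these 4.

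Further rises were found, in part among dim miRNAs. miR-29a* stood at 4.95, 4.77, 4.97 and 4.87 in BMMC and at 5.55, 5.53, 5.87 and 5.53 in IgE_BMMC, a difference of 0.73 (SE 0.08, adjusted p = 1.43e-05). miR-326, cut from an intron of the beta-arrestin gene Arrb1, rose by 0.73 (SE 0.21), miR-17* by 0.73 (SE 0.15) and miR-340-3p by 0.72 (SE 0.22), each without overlap. miR-20a* rose by 0.64 (SE 0.20) with overlap and sat at the floor on 2 BMMC arrays. miR-301b rose by 0.59 (SE 0.18) with overlap, and its 3 detected probes gave 0.04 to 0.59. miR-574-5p, miR-28 and miR-378 rose by 0.47, 0.40 and 0.39 (SE 0.13, 0.06 and 0.09) without overlap. miR-720 and miR-805, names now held to be fragments of other RNAs, rose as well. miR-720 rose by 0.41 (SE 0.13), with overlap, and miR-805 by 0.64 (SE 0.22), without. Their summed scaled level was 5009 to 7318 in BMMC, so not both were dim. Several of the calls in this group were lost in most alternatives: miR-805 passed in 4 of 27, miR-20a* in 10, miR-720 in 12 and miR-301b in 12.

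miR-221 and miR-222 share a seed and are known to repress Kit, the receptor for SCF, in which these cells were grown. Both rose. miR-221 stood at 8.57, 8.80, 8.91 and 9.13 in BMMC and at 9.17, 9.20, 9.17 and 9.23 in IgE_BMMC, a difference of 0.34 (SE 0.11, adjusted p = 0.034). miR-222 stood at 7.31, 6.62, 6.86 and 7.06 in BMMC and at 7.34, 7.34, 7.57 and 7.41 in IgE_BMMC, a difference of 0.45 (SE 0.15, adjusted p = 0.0481). The crosslinked arrays were close together and the control arrays spread down from just below them. Each of the 2 calls was lost in most alternatives: miR-221 passed in 9 of 27 and miR-222 in 4 of 27.

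Of the miRNAs known to be induced in inflammation, 6 were tested and 3 rose, with a median of 0.35. Over all tested, 18.0% rose and the median was 0.0034. With only miRNAs well above background on all 8 arrays, 3 of 5 members rose (median 0.39), against 44 of all 143 (median 0.08). Those 3 were miR-21, miR-21* and miR-146b, which went up by 0.24 (SE 0.07, adjusted p = 0.0232) with overlapping groups. miR-155, made from the Bic transcript of activated lymphocytes and macrophages, stood at 6.14, 5.78, 5.74 and 5.80 in BMMC and at 6.29, 6.23, 5.92 and 6.25 in IgE_BMMC. miR-146a, a target of NF-kB that dampens Toll-like receptor signalling, stood at 4.93, 3.56, 4.08 and 3.82 in BMMC and at 4.07, 4.86, 4.82 and 4.22 in IgE_BMMC. For both the groups overlapped, and neither difference passed the test: 0.30 (SE 0.17, adjusted p = 0.261) for miR-155 and 0.39 (SE 0.30, adjusted p = 0.44) for miR-146a. miR-9 was well above background on none of the 8 arrays.

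Of 9 tested miRNAs of myeloid and haematopoietic cells, 3 rose and 1 fell, with a median of 0.23. Among all tested, 18.0% rose and 6.8% fell, with a median of 0.0034. With only miRNAs well above background on all 8 arrays, 4 of 8 members rose and 2 fell (median 0.25). There 44 of all 143 rose and 16 fell (median 0.08). In the test of all 206 the members called were as follows. miR-22, miR-22* and miR-142-3p rose, miR-22* by 0.27 (SE 0.08), and miR-125a-3p fell. miR-223, which marks granulocytes and monocytes, stood at 8.17, 7.93, 8.57 and 8.27 in BMMC and at 8.24, 8.97, 8.53 and 8.28 in IgE_BMMC, a difference of 0.27 (SE 0.20, adjusted p = 0.412). The groups of miR-223 overlapped almost wholly.

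The 14 falls were led by miR-494, of the imprinted Dlk1-Dio3 region of chromosome 12. Its scaled log2 intensities were 10.40, 10.85, 10.46 and 10.67 in BMMC and 9.31, 9.44, 9.44 and 9.35 in IgE_BMMC, a difference of -1.21 (SE 0.25, adjusted p = 0.00293), so that BMMC were 2.31-fold higher. miR-135a* stood at 9.67, 9.90, 9.52 and 9.77 in BMMC and at 8.67, 8.79, 8.09 and 8.62 in IgE_BMMC, a difference of -1.18 (SE 0.18, adjusted p = 0.000389). Neither overlapped, and both kept their sign under all 27 alternatives and passed in 25 of them. miR-290-5p, of a cluster known from embryonic stem cells, went from 6.26, 6.62, 6.26 and 6.42 to 5.55, 5.39, 5.60 and 5.39, a difference of -0.90 (SE 0.14, adjusted p = 0.000413). miR-874, of an intron of Klhl3, went from 7.84, 8.19, 7.72 and 7.90 to 6.81, 7.10, 7.32 and 6.96, a difference of -0.86 (SE 0.16, adjusted p = 0.00143). All 4 crosslinked arrays were below all 4 control arrays in both.

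The other falls were smaller or dimmer. miR-452 (-0.81, SE 0.24), miR-125a-3p (-0.77, SE 0.20), miR-721 (-0.72, SE 0.14), miR-680 (-0.71, SE 0.14), miR-139-3p (-0.65, SE 0.13), miR-762 (-0.60, SE 0.18) and miR-188-5p (-0.58, SE 0.16) fell without overlap. miR-139 lies in the phosphodiesterase gene Pde2a, and miR-188 and miR-500 in the chloride channel gene Clcn5. miR-500 fell by 0.44 (SE 0.07), and miR-425 by 0.27 (SE 0.08), both without overlap. On the IgE_BMMC arrays miR-452 was well above background on 2 and miR-762 on 1. miR-152, well above background on all 4 BMMC arrays and on 0 IgE_BMMC arrays, was at least 1.15-fold lower after crosslinking (adjusted p = 0.0221), with overlapping groups. miR-452, miR-762 and miR-152 were tested only because of their detection on the BMMC arrays, where they were higher. Their p-values are therefore no support for a fall. Replicate 2 was the highest BMMC array for miR-494, miR-135a*, miR-290-5p, miR-874, miR-452, miR-125a-3p, miR-721, miR-680, miR-139-3p, miR-762 and miR-188-5p. With normexp background correction 7 of the 14 falls changed sign, miR-500 (0.20), miR-290-5p (0.24), miR-425 (0.36), miR-125a-3p (0.66), miR-452 (0.98), miR-762 (1.17) and miR-152 (1.26), against a median of 0.91 for all miRNAs there.

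Most families had few or no calls, where 24.8% of all tested were called. In the let-7 family 0 of 10 tested members were called at an adjusted p under 0.05, with limma differences from -0.14 to 0.34, a median of 0.03 and 1 member at an unadjusted p under 0.05. By limma the miR-15/16 family had 0 calls of 5 tested (median 0.08, 2 at an unadjusted p under 0.05) and the miR-181 family 0 of 5 (median 0.00, 1 unadjusted). Of miR-210 and the miR-34 members, 3 were tested and 0 called (median 0.07, 0 unadjusted). Among 14 tested members of the miR-17-92 and paralogous clusters, which drive proliferation, 2 star arms rose and the median was 0.06, a share near the 18.0% that rose over all tested. Of all 29 tested star arms, 7 rose and 1 fell. miR-34a, a target of p53, stood at 8.54, 8.87, 8.84 and 9.12 in BMMC and at 8.69, 8.82, 8.57 and 9.08 in IgE_BMMC. miR-193 had a large difference of 1.31 (SE 0.47) that missed the threshold (adjusted p = 0.0572), with 5.77, 4.97, 4.96 and 4.45 in BMMC and 6.38, 6.44, 6.95 and 5.62 in IgE_BMMC. miR-210, induced by hypoxia, differed by 0.73 (SE 0.46, adjusted p = 0.324), with 5.82, 5.31, 5.14 and 3.56 on the IgE_BMMC arrays.

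The difference between the arms of a hairpin on 1 array does not depend on its scale factor where both arms lie above the floor. Taken were the 19 pairs with both arms well above background on 3 or more arrays of BMMC and also of IgE_BMMC. The within-array log2 difference of the arms shifted in 10 of them (52.6%), towards the second arm in 8 and towards the first in 2. miR-24-1* gained on miR-24 by 0.79 (SE 0.10, adjusted p = 1.20e-05) and miR-24-2* by 0.75 (SE 0.15, adjusted p = 0.000753). miR-29a* gained on miR-29a by 0.73 (SE 0.08, adjusted p = 2.09e-06), since miR-29a itself differed by 0.00. The gains were 0.98 (SE 0.27) for miR-340-3p over miR-340-5p, 0.63 (SE 0.10) for miR-20a* over miR-20a, 0.54 (SE 0.20) for miR-30e* over miR-30e and 0.53 (SE 0.12) for miR-17* over miR-17. miR-142-3p gained on miR-142-5p by 0.37 (SE 0.06). In the other direction, miR-140* fell behind miR-140 by 0.73 (SE 0.07, adjusted p = 1.25e-06) and miR-22* behind miR-22 by 0.46 (SE 0.12). The shift of miR-21* against miR-21 was 0.04 (SE 0.23, adjusted p = 0.901), but miR-21* sat at the floor on all 4 BMMC arrays. That shift was 0.72 with a floor of 1 and -1.01 with the floor first planned, so it does not show whether these arms moved together. The ratios of the groups did not overlap in 13 of the 19 pairs (68.4%), among them the 10 called. With the floor first planned 9 pairs were called, and 6 of the 10 remained. Those lost with it were the gains of miR-340-3p (0.26), miR-29a* (0.0015), miR-20a* (-0.0060) and miR-30e* (-0.00064). With a floor of 1, miR-22* lost its call (adjusted p = 0.511). Normexp background correction turned the shift of miR-22* to 0.73.

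**Figure D4:**
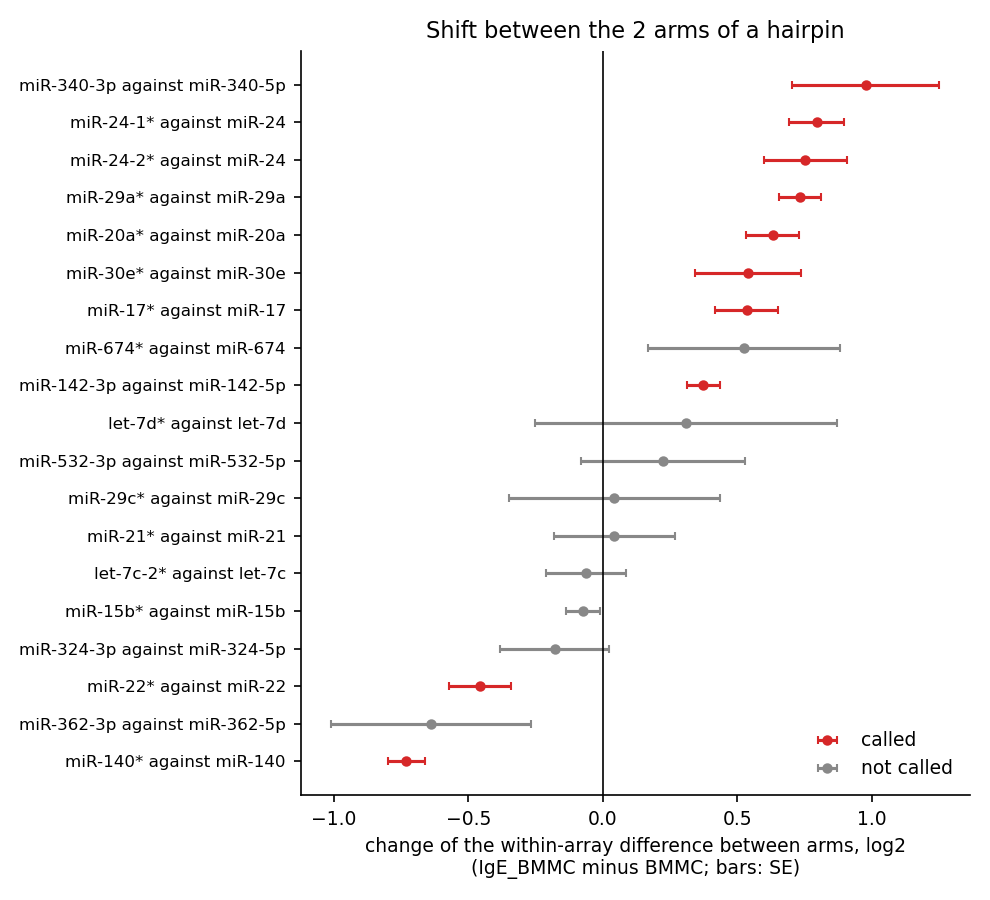
Change of the within-array log2 difference between the 2 arms of a hairpin, IgE_BMMC minus BMMC, for 19 pairs, with SE bars. Points right of 0 mark a second arm that gained on the first. The 10 called pairs are red, with miR-340-3p at 0.98 and miR-140* at -0.73 as the ends.

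Against the other 2 groups, which share the crosslinked arrays, the values were as follows. miR-132 was 3.44 (SE 0.13) higher than in MMC, where it stood at 3.72, 3.79, 3.56 and 4.03. No progenitor array had miR-132 well above background, and the crosslinked cells were at least 6.33-fold higher. The progenitor arrays were as dim as those of the crosslinked cells, at 393 ± 52.6 intensity units (SD, n = 4). Of the 37 rises against BMMC, 12 were also higher against MMC and 2 lower, where 21 of 173 tested miRNAs (12.1%) were higher and 32 (18.5%) lower. miR-21 differed from MMC by -0.10 (SE 0.09, adjusted p = 0.434). miR-24-1* was 0.53 (SE 0.10) and miR-22 0.25 (SE 0.08) above MMC. Of the 14 falls, 12 were also lower against MMC and 0 higher, miR-494 by -1.66 (SE 0.25). Against the progenitors, where 50 of 176 tested (28.4%) were higher and 90 (51.1%) lower, 22 of the 37 rises were higher and 9 lower. Of the 12 falls tested there, 5 were lower and 3 higher. miR-135a* was 1.54 (SE 0.18) higher than in the progenitors and miR-494 differed by -0.47 (SE 0.25, adjusted p = 0.0971).

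The miRNAs called lower had a higher median GC content. It was 54.5% over the 13 with a sequence, against 47.6% over 28 that rose and 45.8% over all 179. The lower calls include miR-452, miR-762 and miR-152, which were tested only because of their detection on the BMMC arrays. Across the 130 miRNAs detected in both groups, GC content and difference had a Pearson r of -0.15 and a Spearman rho of -0.14, given as a description, over miRNAs that share arrays and scale factors. Among the 17 with 60% GC or more, 3 fell and 1 rose, with a median of -0.28. Among the 26 under 40% GC, 4 rose and 0 fell, with a median of 0.12. In between, 14 of 57 rose and 4 fell from 40% to under 50% GC, and 9 of 30 rose and 3 fell from 50% to under 60%. Over all 206 tested, 18.0% rose and 6.8% fell. These shares are not a like comparison, since the GC ranges hold only the 130 miRNAs detected in both groups. The part of GC content in the calls was not tested.

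A set of miRNAs found in blood cells was detected. miR-142-3p, miR-142-5p, miR-223, miR-221, miR-222, miR-21 and miR-24 were well above background on all 8 arrays. miR-24 is made in other cells as well, so the set does not mark blood cells alone. Of the 15 entries of the myeloid and haematopoietic list, 9 were well above background on any of the 8 arrays. miR-125a-5p and miR-99b were so on none. Of 41 miRNAs that mark lymphoid, erythroid, stem, stromal, muscle, liver, neuron or epithelial cells, 7 were well above background on any of the 8 arrays. The stromal, muscle and liver markers were so on none. Over all mouse miRNAs on the array, 231 of 567 were well above background on any of the 8. The summed scaled level of the 41 was 75.6 to 94.5 in BMMC and 79.7 to 96.2 in IgE_BMMC. Of the 6 markers that were tested, limma called 0, and 0 had an unadjusted p under 0.05. That test had little to find: miR-10b, miR-486, miR-141 and miR-200c were well above background on 0 IgE_BMMC arrays and miR-219 on 1. miR-141 and miR-200c differed by exactly 0.0, as values set to the floor do. The test therefore does not bear on the make-up of the cultures.

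**Figure D5:**
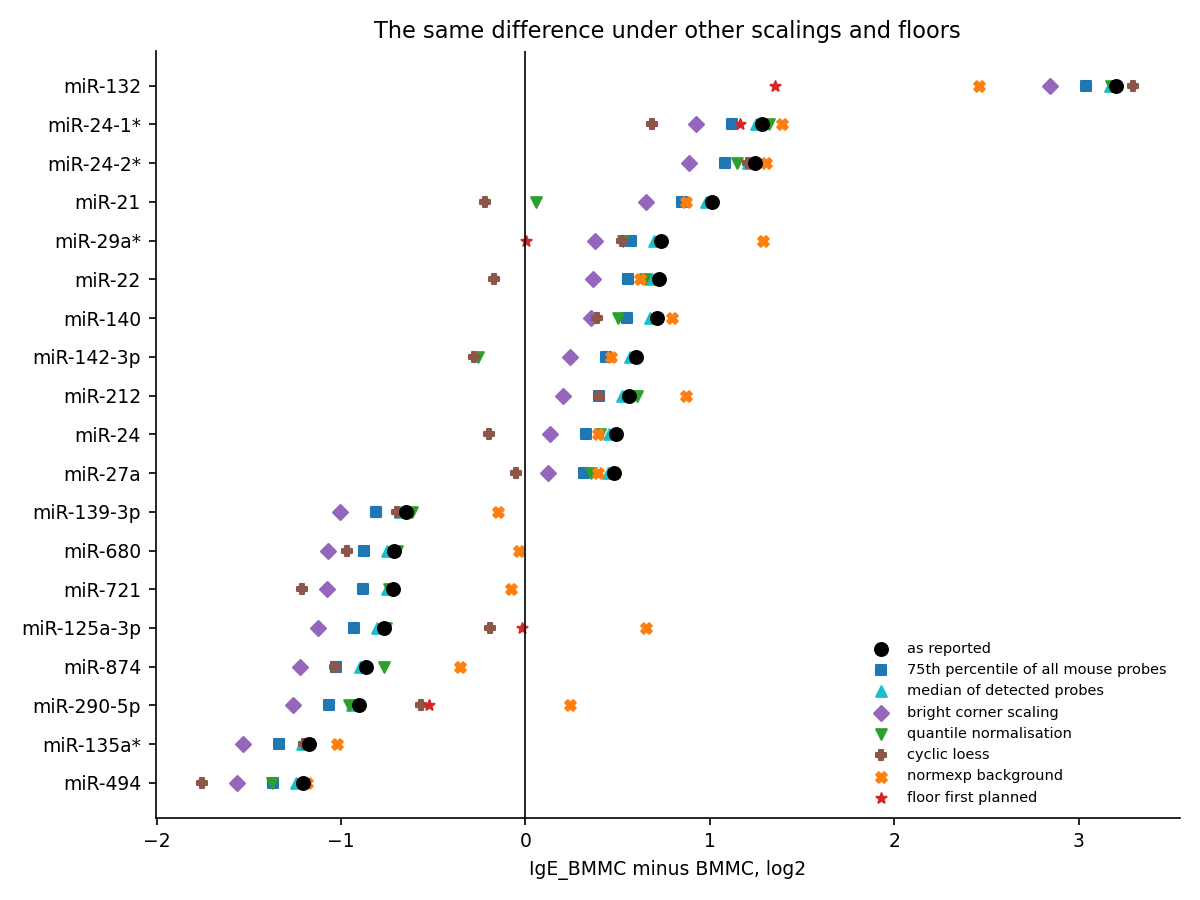
Log2 difference, IgE_BMMC minus BMMC, of 19 miRNAs under the reported setting (black circles) and 7 others. miR-132 stays at or above 1.35 and miR-494 at or below -1.18 under all 8, while miR-21 runs from -0.22 to 1.01 and miR-142-3p from -0.28 to 0.60.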

How the data were processed

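Small RNA arrays of 1 colour were read for 16 samples. Per the file headers, the authors deposited Agilent Feature Extraction 9.5.1.1 output, in which processed intensity is background-corrected but not normalised between arrays. The authors also deposited a table of log2 values whose making is not stated. All of its rows have a median within 0.01 of 0, its columns have medians of -0.98 to 0.82, and its differences ran the same way as those of the scaled intensities (r = 0.81 across 206 miRNAs), but its scale between arrays stays unknown. Outlier and control spots were left out, spots of a probe were averaged, and each array was divided by the 75th percentile of 205 probes well above background on all 16 arrays. Anything below 11.8, the median over arrays of the lowest scaled signal well above background, was set to that floor. Each miRNA was represented by its brightest probe. The plan had set the floor at the highest of those signals, 58.3, which comes from 1 progenitor array and puts 93 of the 206 tested miRNAs at the floor on all 8 arrays, against 24. The floor was changed after the data were seen, to that of an earlier analysis of these data, and results with the planned floor are given beside it.

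A miRNA was tested when 3 or more arrays of BMMC, or of IgE_BMMC, had it well above background. Of those tested, 56 passed only through the brighter BMMC arrays and 0 only through the IgE_BMMC arrays. limma 3.58.1 in R 4.3.3 was fitted to log2 values of all 16 arrays (12 residual degrees of freedom), with Benjamini-Hochberg adjustment over 206 miRNAs and calls at an adjusted p under 0.05. Tests on simulated data for this comparison recovered 67.3%, 90.5% and 99.1% of log2 changes of 0.5, 1 and 2. The number of arrays limits the precision. Both slides held 2 arrays of each group, and a test of slide by limma gave 0 calls (9 with an unadjusted p under 0.05). The text names the 10 largest rises and falls, a fixed set and the leading members of each list. Members and lists were chosen with earlier results of these data known. Alternatives were other scalings, backgrounds, floors, probe summaries, filters, blocks and arrays left out.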

Additional observations from a re-analysis of the deposited data

Results flagged for a closer look

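Of 61 groups of 4 arrays checked with Dixon's test, 7 had 1 array far from the other 3, where chance gives about 1 in 20. Replicate 2 of BMMC was the highest for miR-125a-3p (5.94 on the log2 scale, others 5.40 to 5.47), miR-680 (7.51, others 7.10 to 7.17) and miR-762 (4.53, others 4.17 to 4.22). For miR-155, replicate 1 of BMMC was high at 6.14 (others 5.74 to 5.80) and replicate 3 of IgE_BMMC low at 5.92 (others 6.23 to 6.29). Replicate 3 of IgE_BMMC was high for miR-29a* at 5.87 (others 5.53 to 5.55) and had the lowest unscaled 75th percentile, 311 intensity units (others 405 to 419). The arrays also carry 10 viral miRNAs, which entered no comparison above. One of them, mghv-miR-M1-2, was well above background on all 8 arrays and 0.70 higher on the log2 scale after crosslinking (SE 0.11), with the BMMC arrays at the floor. Its unscaled intensity went the other way, at 17.2, 17.9, 15.5 and 15.1 in BMMC and 10.3, 11.3, 11.5 and 11.9 in IgE_BMMC. The rise of mghv-miR-M1-2 thus rests on the scaling and the floor.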

How the results depend on the processing

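The counts of 37 higher and 14 lower calls moved by over 1.5 times, in at least 1 direction, under these settings, given as higher and lower: the percentile of all mouse probes (8 and 25), quantile normalisation (23 and 22), cyclic loess (1 and 0), bright corner scaling (3 and 7), normexp background (163 and 4), the floor first planned, added after seeing the data (24 and 11), the authors' log2 table (11 and 14), no filter (20 and 9), slide 1 alone (16 and 6) and slide 2 alone (14 and 4). Leaving out 1 array gave 19 to 40 higher and 10 to 16 lower. With the replicate number as a block there were 31 higher and 14 lower. Arrays of 1 number deviated together for replicate 4 only (correlations of -0.11, -0.13, -0.25 and 0.44). The labels do not say whether a number marks a shared culture, and 4 arrays per group cannot settle it. The 58 fewer miRNAs detected after crosslinking became 0.25 more when counted above the floor after scaling. Of 19 arm pairs, 18 were called with normexp background, and 9 each with the floor first planned and a floor of 1, both added after seeing the data.

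Signs turned as follows on the log2 scale, and the cause was not tested. With cyclic loess miR-21 was -0.22, miR-21* -1.26, miR-22 -0.17, miR-22* -2.29, miR-23a -0.54, miR-23b -0.31, miR-24 -0.20, miR-27a -0.052, miR-27b -0.45, miR-28 -0.17, miR-30d -0.12, miR-142-3p -0.28, miR-146b -0.50, miR-221 -0.10 and miR-720 -0.35. With bright corner scaling miR-22* was -0.092, miR-27b -0.091, miR-30d -0.038, miR-146b -0.12 and miR-221 -0.017. With quantile normalisation miR-23a was -0.060, miR-142-3p -0.26 and miR-720 -0.28. With normexp background miR-125a-3p was 0.66, miR-140* 0.36, miR-152 1.26, miR-290-5p 0.24, miR-340-5p 0.38, miR-425 0.36, miR-452 0.98, miR-500 0.20, miR-762 1.17 and the ratio of miR-22* to miR-22 0.73. With the floor first planned the arm ratios of miR-20a* (-0.0060) and miR-30e* (-0.00064) fell to about 0. Against the progenitors, miR-494 was 0.84 and miR-212 1.03 with the percentile of all mouse probes, and miR-212 was 0.41 with quantile normalisation. Signal over background limits the dim miRNAs, of which 24 of the 206 were at the floor on all 8 arrays.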
